A study of Mus musculus with 8 samples.

Results

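The circadian clock is represented here by 10 genes, Per1, Per2, Per3, Cry1, Cry2, Arntl, Clock, Npas2, Nr1d1 and Dbp, which were taken by name from the 32285 genes of the count matrices; all 10 were found. In the molecular clock, the transcription factors encoded by Clock or its paralogue Npas2 pair with the product of Arntl (also called BMAL1) and activate Per and Cry genes through E-box motifs, and PER and CRY proteins return to repress that pair. Nr1d1 encodes REV-ERB alpha, a nuclear receptor that represses Arntl through ROR elements, and Dbp is a direct output of the E-box loop whose protein acts on D-box motifs, including those of Per genes. In the striatum, Npas2 is known as a forebrain partner of Arntl, and Per1 also responds to neuronal activity.

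Nuclear RNA was measured with the 10x Genomics Multiome assay in frozen striatum of 32 untreated mice, 12 weeks of age, from 8 inbred strains, of which CAST/EiJ, PWK/PhJ and WSB/EiJ derive from wild mice and A/J, NOD/ShiLtJ, C57BL/6, 129S1/SvImJ and NZO/HlLtJ are laboratory strains. The C57BL/6 substrain is written C57BL/6J in the design text and C57BL/6NJ in the deposited table of nuclei. Every one of 4 batches pooled the nuclei of 8 mice, 1 of each strain, so a mouse is given by its strain and its batch. Sex is balanced within batches by the design text, but neither the sex nor the hour of tissue collection of a given mouse is given in the sources used here, so levels are compared without either.

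The authors kept and annotated 55672 of 89339 barcodes in 18 clusters, and the 10 genes were read in all of them. The kept nuclei had a median of 4329 unique molecular identifiers (UMIs, counted RNA molecules), lowest in batch 3 at 3232. Counts were summed over the nuclei of each mouse and cluster, and 9 clusters had at least 10 nuclei in 3 or more mice of every strain and were tested. The depth of these sums ran from 1710451 to 9416806 counts in Drd1+ neurons and from 38252 to 1085998 in astrocytes. Of the marker genes listed, all 4 of Drd2+ neurons, 4 of oligodendrocytes, 4 of astrocytes, 4 of macrophages and 3 of endothelium were highest in the cluster of that name, as were 2 of 4 of Drd1+ neurons (Drd1 and Pdyn), 2 of 3 of polydendrocytes and 2 of 3 mural genes (Pdgfrb and Vtn). The third polydendrocyte gene, Pdgfra, was highest in Fibroblast, and the third mural gene, Rgs5, in Endothelium. Of 54141 barcode sequences, 1517 occurred in more than 1 batch. Levels are counts per 1000000 counts of a library (CPM) after scaling by the trimmed mean of M-values (TMM) within a cluster. A test was called at a Benjamini-Hochberg adjusted p under 0.05 over all genes tested. Fitted log2 differences between clusters were scaled over the 9 clusters together, so they can depart from ratios of these levels. Summed over all nuclei, Clock was at 144 CPM in Polydendrocyte/Oligodendrocyte and 151 in Drd1+ neurons, yet its fitted difference was −0.56.

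The promoter letters of the loop are shown for Per1, Cry1, Per3 and Arntl, because these 4 hold matches of the E-box, D-box or ROR element through which clock proteins act and because deposited peaks of open chromatin cover their start sites. The windows run from 250 bases before to 50 after the transcription start (RefSeq, GRCm38.p6), written 5′ to 3′ on the gene's strand, and capitals mark motif matches.

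Per1 promoter, chr11:69098699-69098998, plus strand: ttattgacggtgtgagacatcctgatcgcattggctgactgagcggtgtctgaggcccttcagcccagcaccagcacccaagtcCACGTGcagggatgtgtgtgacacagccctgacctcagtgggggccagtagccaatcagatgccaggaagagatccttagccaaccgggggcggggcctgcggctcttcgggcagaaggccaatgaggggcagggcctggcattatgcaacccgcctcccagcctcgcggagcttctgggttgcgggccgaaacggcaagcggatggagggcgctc
Cry1 promoter, chr10:85185005-85185304, minus strand: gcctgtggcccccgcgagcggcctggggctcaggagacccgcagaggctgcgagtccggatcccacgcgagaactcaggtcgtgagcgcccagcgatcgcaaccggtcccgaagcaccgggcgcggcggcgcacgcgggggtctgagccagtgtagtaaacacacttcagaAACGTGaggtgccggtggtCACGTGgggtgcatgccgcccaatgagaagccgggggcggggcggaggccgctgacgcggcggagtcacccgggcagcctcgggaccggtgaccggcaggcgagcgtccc
Per3 promoter, chr4:151044616-151044915, minus strand: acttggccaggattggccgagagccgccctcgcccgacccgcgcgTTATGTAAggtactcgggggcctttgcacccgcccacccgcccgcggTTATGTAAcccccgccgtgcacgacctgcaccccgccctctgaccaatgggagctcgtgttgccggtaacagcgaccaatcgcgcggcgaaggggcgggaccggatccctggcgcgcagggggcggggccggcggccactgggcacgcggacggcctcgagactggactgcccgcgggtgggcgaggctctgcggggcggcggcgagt
Arntl promoter, chr7:113207261-113207560, plus strand: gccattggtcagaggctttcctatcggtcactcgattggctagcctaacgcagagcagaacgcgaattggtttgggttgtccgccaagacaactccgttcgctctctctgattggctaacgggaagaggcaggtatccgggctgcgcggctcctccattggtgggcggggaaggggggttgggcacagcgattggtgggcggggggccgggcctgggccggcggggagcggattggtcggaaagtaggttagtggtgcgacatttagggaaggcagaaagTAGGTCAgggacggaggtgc

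The E-box CACGTG reads the same on both strands and starts 166 bases before the Per1 start and 60 bases before the Cry1 start. The related letters CACGTT, looked for on both strands, lie 79 bases before the Cry1 start (in capitals above as their reverse complement), 166 before that of Cry2 and 28 before that of Nr1d1. A D-box, TTATGTAA, occurs in Per3 at 205 and again at 158 bases before the start. The core of a ROR element, TAGGTCA, lies 30 bases after the listed Arntl start shown. None of these matches overlaps another. Among all 27025 genes with windows of this length, 8.09% hold CACGTG, 5.44% CACGTT, 1.11% TTATGTAA and 2.97% TAGGTCA on either strand. The letters TTACGTAA and TGACGTCA, a second D-box form and a cyclic AMP element, were in no member's window and in 0.126% and 2.03% of all genes. Windows were listed for 9 members, all but Per2. Among the 291715 deposited peaks there was one over each listed start except that of Dbp, 278 bases from the nearest peak, and 1 of 3 starts of Clock, 451 bases away.

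Npas2 had the largest differences of the 10 genes between striatal cell types. In the positive limb, Npas2 was at 340 ± 60.4 CPM (SD, n = 32 mice) in Drd1+ neurons, with a lowest, median and highest mouse of 254, 332 and 461. It was at 350 ± 60.3 in Drd2+ neurons, 177 ± 71.3 in astrocytes, 166 ± 48.1 in the second Drd1+ cluster, 126 ± 68.6 in endothelium (n = 29), 78.4 ± 71.4 in Polydendrocyte/Oligodendrocyte (n = 27), 71.8 ± 36.4 in Nxph1+ interneurons, 6.45 ± 3.83 in oligodendrocytes and 6.25 ± 6.22 in macrophages. Ordered by these means, with Drd2+ neurons first and Drd1+ neurons next, neighbours differed by less than the SD of one of them, except Drd1+ neurons against astrocytes and Nxph1+ interneurons against oligodendrocytes. This SD is over mice and leaves out that clusters share mice. It therefore tests no step, here or in the orders of Per3 and Dbp below. Against Drd1+ neurons of the same mice, Npas2 fell by 5.82 ± 0.13 (SE) on the log2 scale in oligodendrocytes and by 5.99 ± 0.19 in macrophages (adjusted p = 4.91e-124 and 9.28e-91, edgeR's quasi-likelihood test with the mouse as block). Relative to projection neurons this is 2.03% in oligodendrocytes and 2.12% in macrophages. 8 marker genes of projection neurons stood at 3.47% to 33.8% and 4.24% to 34.7% there, all above the share of Npas2. The part of projection neuron RNA in the Npas2 UMIs of these 2 clusters was not tested. In astrocytes Npas2 was at 51.3% of the projection neuron level, above all 8 markers, which lay between 3.39% and 29.8%. In endothelium and Polydendrocyte/Oligodendrocyte it was at 33.1% and 27.5%, within the 16.7% to 34.1% and 7.73% to 27.8% of the markers, and in Nxph1+ interneurons at 24.6% (markers 7.23% to 42.8%), so its place in these 3 clusters cannot be told apart from RNA of projection neurons.

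The same shares were taken for the other members. In astrocytes all 10 members lay above the 8 markers. In endothelium and Polydendrocyte/Oligodendrocyte the other 9 did, and in Nxph1+ interneurons 7 did, with Arntl and Dbp within the markers. In oligodendrocytes Per2 (20.7%) and Arntl (28.1%) lay within the markers and 7 members above them. In macrophages Per2, Cry2 and Arntl (23.3%, 22.8% and 30.7%) lay within and 6 above. Values of these members in these clusters, the Per2 strain term of oligodendrocytes included, are given as counted, and the part of projection neuron RNA in them was not tested.

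Clock, the paralogue of Npas2, had another distribution. It was at 151 ± 12.1 CPM in Drd1+ neurons, 149 ± 20.6 in oligodendrocytes and 69.0 ± 20.7 in astrocytes, where it fell by 1.48 ± 0.06 on the log2 scale (adjusted p = 5.7e-65). Oligodendrocytes thus had Clock near the neuronal level, with a fitted fall of 0.28 ± 0.05, and Npas2 at 2.03% of the projection neuron level. Arntl was at 63.8 ± 16 CPM in Drd1+ neurons, 79.3 ± 19.4 in Drd2+ neurons, 63.9 ± 21.1 in astrocytes and 22 ± 9.64 in oligodendrocytes. Its rise in Drd2+ over Drd1+ neurons, 0.33 ± 0.06 on the log2 scale (adjusted p = 2.24e-06), passed under all 9 alternatives tried.

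Of the negative limb, Per3, which encodes the period protein with the weakest known role in rhythm generation, was at 211 ± 61.0 CPM in astrocytes against 65.9 ± 23.0 in Drd1+ neurons and 38.2 ± 20.5 in oligodendrocytes. The lowest astrocyte library had 118 CPM and the highest Drd1+ library 123, so the groups met only at their edges. Its order continued from astrocytes to the second Drd1+ cluster at 86.7 ± 31.4, Drd2+ neurons at 72.5 ± 20.2, Drd1+ neurons, Polydendrocyte/Oligodendrocyte at 63.9 ± 40.5, endothelium at 62.8 ± 24.1, macrophages at 49.7 ± 30.4, Nxph1+ interneurons at 43.9 ± 19.6 and oligodendrocytes. Only the step below astrocytes was larger than the SD of a neighbour. Per3 rose by 1.37 ± 0.07 on the log2 scale in astrocytes over Drd1+ neurons (adjusted p = 3.16e-52). Per2 was at 82.5 ± 35.5 CPM in astrocytes, 52.5 ± 17.9 in Drd1+ neurons and 12.4 ± 9.34 in oligodendrocytes, where it fell by 2.37 ± 0.11. Per1 stood at 33.4 ± 10.0 CPM in Drd1+ neurons, 32.1 ± 14.2 in astrocytes and 24.2 ± 9.45 in oligodendrocytes. Cry2, a repressor of the Arntl pair, was at 122 ± 28.1 CPM in astrocytes, 69.5 ± 8.74 in Drd1+ neurons and 14 ± 13.0 in macrophages. Cry1 was at 25.0 ± 6.48 CPM in Drd1+ neurons, 35.9 ± 22.5 in endothelium and 13.7 ± 5.44 in oligodendrocytes. It was not tested between clusters: the low count filter asked for 43.0 CPM in at least 22 of the 280 libraries, and Cry1 reached that in 20.

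Among the 9 tested clusters, Nr1d1 and Dbp were highest in endothelium and astrocytes. Dbp was at 135 ± 53.5 CPM in endothelium, 94.0 ± 34.7 in astrocytes, 59.1 ± 11.5 in Drd2+ neurons, 53.3 ± 10.4 in Drd1+ neurons, 44.3 ± 22.1 in the second Drd1+ cluster, 37.5 ± 19.3 in macrophages, 33.0 ± 7.82 in oligodendrocytes, 24.9 ± 22.7 in Polydendrocyte/Oligodendrocyte and 21.4 ± 13.6 in Nxph1+ interneurons. The step from endothelium to astrocytes was within the SD, as were the steps below Drd2+ neurons. Within mice, however, Dbp was called lower in the second Drd1+ cluster than in Drd1+ neurons. That log2 difference was −0.45 ± 0.09 (adjusted p = 1.35e-05, edgeR's quasi-likelihood test). Over Drd1+ neurons, Dbp rose by 1.01 ± 0.08 in endothelium and 0.48 ± 0.07 in astrocytes on the log2 scale (adjusted p = 4.31e-26 and 1.68e-10). Nr1d1 was at 71.0 ± 43.1 CPM in endothelium and 53.0 ± 19.6 in astrocytes, and between 8.98 and 15.9 in the other 7 clusters. The fitted difference from Drd1+ neurons was 2.19 ± 0.13 and 1.71 ± 0.11 on the log2 scale. Nr1d1 passed the low count filter through these clusters, which held 44 of the 47 libraries at the level asked, so that a difference was built into its being tested. With no filter, the differences were 2.13 and 1.74 (adjusted p = 6.47e-44 and 3.96e-44, edgeR's quasi-likelihood test).

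**Figure D1:**
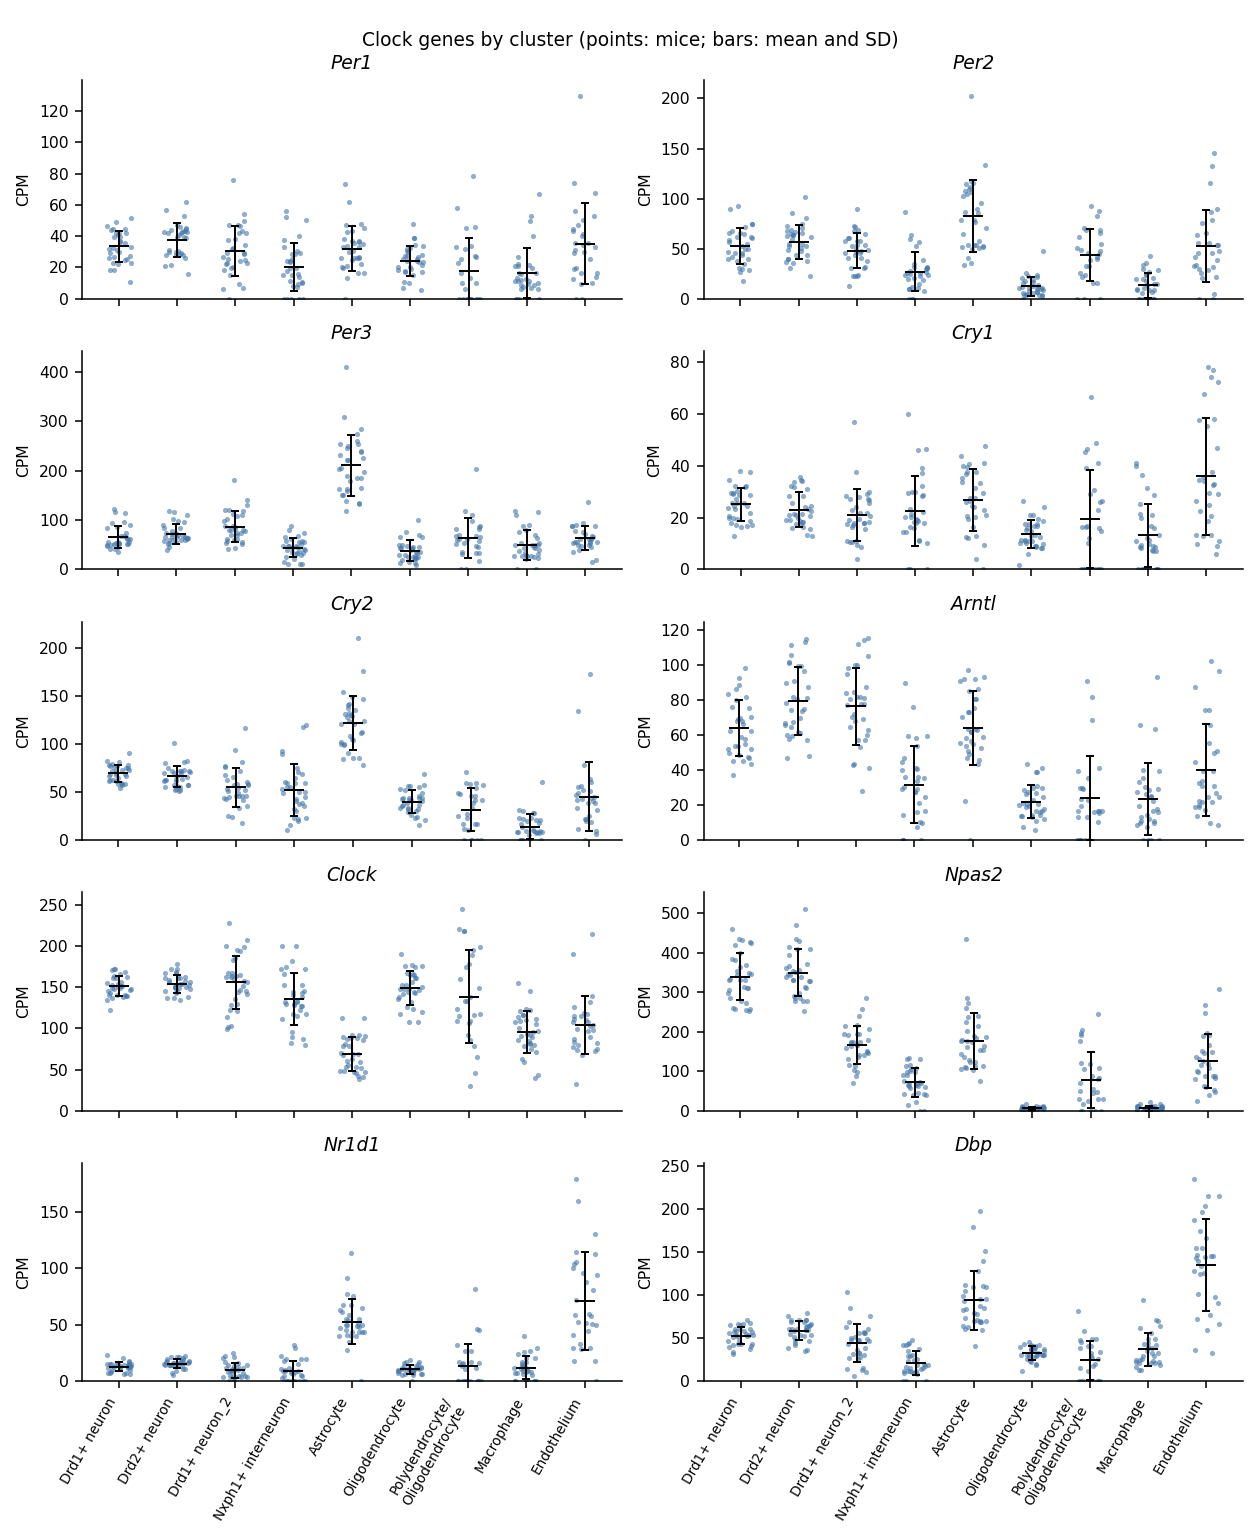
Level of each clock gene (y axis, CPM, linear scale from 0) in the 9 tested clusters (x axis). Points are mice (27 to 32 a cluster) and bars the mean and SD; Npas2 lies highest in Drd1+ and Drd2+ neurons and near 0 in oligodendrocytes and macrophages, Per3 highest in astrocytes, and Nr1d1 and Dbp highest in endothelium and astrocytes.

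These counts are to be read against a background in which most genes differed between cell types, and the clusters themselves were drawn by the authors from the same RNA. The counts cover the 9 members that passed the filter, and are a description of those. They rest on the fitted differences, scaled over all tested clusters, and not on the CPM levels above. Of these 9 members, all 9 were lower in oligodendrocytes, where 44.3% of 8510 genes were lower, and all 9 in macrophages, where 43.6% were. In Nxph1+ interneurons, 9 were lower against 34.9% of all genes, and in Polydendrocyte/Oligodendrocyte 8 were lower against 40.8%. Their median log2 difference was −1.04 in oligodendrocytes, −1.65 in macrophages, −0.95 in Nxph1+ interneurons and −1.40 in Polydendrocyte/Oligodendrocyte, while the median of all genes was −0.01, −0.06, −0.09 and −0.23. In astrocytes 5 members were higher against 42% of genes and 4 lower against 43.1%, near the background share. In endothelium 2 were higher against 33.7% and 6 lower against 49.5%, with medians of −0.46 for the members and −0.27 for all genes. In the second Drd1+ cluster 1 was higher against 14.7% and 5 lower against 30.5%, with medians of −0.32 and −0.09. Drd2+ neurons had 4 members higher than Drd1+ neurons against 5.97% of genes and none lower against 8.21%. Beyond Arntl these were Nr1d1 at 0.31 ± 0.09, Per3 at 0.17 ± 0.06 and Dbp at 0.16 ± 0.06, and these 3 calls were not stable: the count of 4 fell to 1 without batch 1 or batch 2, to 2 without batch 3 or batch 4, to 1 with DESeq2 and to 1 without the mouse as block. In astrocytes, scaling by DESeq2's size factors or leaving out batch 3 ended the calls of lower Per1 and Arntl, and in endothelium those of lower Per2 and Per3. Higher Per2 in astrocytes lost its call without batch 4 (adjusted p = 0.0894). In the second Drd1+ cluster the one higher member, Per3, lost its call with no low count filter, with at least 30 nuclei, without the block and without batch 2, 3 or 4. Lower Per2 lost it there with DESeq2 or its size factors, without the block and without batch 1 or batch 2, and lower Nr1d1 with DESeq2 or its size factors and without batch 3. In Polydendrocyte/Oligodendrocyte the calls of lower Per2 and Per3 ended with DESeq2's size factors (adjusted p = 0.143 and 0.174) and with DESeq2 (0.0922 and 0.152), and that of Per2 also without batch 1 or batch 3. Lower Nr1d1 ended without batch 3 in oligodendrocytes and without batch 1, 3 or 4 in macrophages. Clusters left out of the tests gave single values with 95% Poisson intervals that cover counting error only. Fibroblasts had Per3 at 162 CPM (116 to 219) and Dbp at 114 (76.5 to 164). Nr1d1 was at 47.3 (24.4 to 82.6) in fibroblasts, 47.1 (36.1 to 60.4) in mural cells and 37.5 (27.4 to 50.2) in ependyma. By the same sums it was at 51.7 in astrocytes and 79.5 in endothelium. The other clusters left out of the tests had Nr1d1 at 1.04 to 19.7. Chat+ interneurons had Npas2 at 20.7 (12.7 to 32.0) and Nr1d1 at 1.04 (0.0263 to 5.78, 1 count). Excitatory Slc17a7+ neurons of the second such cluster had Npas2 at 239 (224 to 255), which is 69.9% of the projection neuron level beside 0% to 11.1% for the 8 marker genes. In mural cells Npas2 was at 210 (186 to 236), or 61.2%, above the same markers at 31.6% to 52.1%. The part of neuronal RNA in this value was not tested, so no cell of origin is read from it.

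Between strains, Npas2, Per3 and Dbp differed in both kinds of projection neuron. The strain term was called for 5 of 10 members in Drd1+ neurons, where it was called for 61.7% of 13431 genes: Npas2, Per3, Dbp, Nr1d1 and Cry2. In Drd2+ neurons 4 of 10 were called, Npas2, Per3, Dbp and Cry2, against 55.9% of 12799 genes. The median F of the members was 3.62 beside 3.38 over all genes in Drd1+ neurons and 1.98 beside 2.95 in Drd2+ neurons. These values depend on the low count filter. Without it 9 of 10 members were called in each cluster, against 36% of 26987 genes in Drd1+ and 32% of 26468 in Drd2+ neurons. Of the genes that pass the filter, 61.5% and 55.9% were then called. The median F of the members was then 8.09 in Drd1+ and 6.00 in Drd2+ neurons, beside 3.31 and 2.88 over the genes that pass the filter. The cause of this change was not tested. Reads of all strains were counted on one reference (builds mm10 and GRCm38 in the submitters' processing notes), and its part in strain differences was not tested. CAST/EiJ and PWK/PhJ are far from that reference, and 32.8% and 34.4% of genes were called for them in Drd1+ neurons.

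Npas2 had the largest strain statistic of the members. In Drd1+ neurons of batches 1 to 4, the CAST/EiJ mice had 433, 461, 435 and 424 CPM and the NZO/HlLtJ mice 363, 426, 400 and 419. PWK/PhJ mice had 254, 261, 278 and 259 CPM and A/J mice 306, 258, 273 and 256. No PWK/PhJ or A/J mouse reached the lowest CAST/EiJ or NZO/HlLtJ mouse. The F statistic was 22.4 (adjusted p = 2.69e-11). Against the mean of the other 7 strains, the log2 difference was 0.44 ± 0.05 in CAST/EiJ, 0.30 ± 0.06 in NZO/HlLtJ, −0.34 ± 0.06 in A/J and −0.40 ± 0.06 in PWK/PhJ, all called. Drd2+ neurons gave 0.47 ± 0.06, 0.26 ± 0.06, −0.21 ± 0.06 and −0.38 ± 0.06 for these strains, also called. These contrasts share mice, since every strain is in the reference of the others.

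Per3 differed from the other strains in both directions. NOD/ShiLtJ mice had 95.7, 86.2, 114 and 123 CPM and WSB/EiJ mice 51.3, 93.4, 90.1 and 117 in Drd1+ neurons. C57BL/6 mice had 45.9, 41.5, 53.9 and 51.6 CPM and CAST/EiJ mice 40.7, 35.1, 56.5 and 48.8. All NOD/ShiLtJ mice lay above all C57BL/6 and CAST/EiJ mice, whereas the WSB/EiJ mouse of batch 1 lay among them. The log2 difference from the other strains was 0.83 ± 0.10 in NOD/ShiLtJ, 0.52 ± 0.10 in WSB/EiJ, −0.44 ± 0.11 in C57BL/6 and −0.57 ± 0.12 in CAST/EiJ (F = 17.8, adjusted p = 5.6e-08 for the strain term). The call in C57BL/6 was lost without batch 3 (adjusted p = 0.0586). Per3 was also the one member with a batch term in Drd1+ neurons (F = 7.65, adjusted p = 0.00482), with 74.5 CPM in batch 4 and 56.8 in batch 1, where 24.8% of genes had one; without batch 3 its adjusted p was 0.0635, and without batch 2 or batch 4 the count was 2.

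Nr1d1, Dbp and Cry2 were called lower in NZO/HlLtJ, an obese strain prone to diabetes. Dbp was at 41.2, 42.4, 34.6 and 32.0 CPM in the NZO/HlLtJ mice in Drd1+ neurons, while 129S1/SvImJ mice had 60.9, 71.2, 65.8 and 67.9. In Drd2+ neurons Dbp was at 39.2, 42.6, 36.1 and 35.9 in NZO/HlLtJ, and the other 28 mice had 44.8 to 79.6 with a median of 61.0. That is the one pair of member and strain, in Drd1+ and Drd2+ neurons, astrocytes or oligodendrocytes, whose 4 mice lay wholly outside the range of the others. The log2 difference was −0.55 ± 0.09 in Drd1+ and −0.68 ± 0.09 in Drd2+ neurons (adjusted p = 1.54e-05 and 1.54e-07). Nr1d1 was at 6.91, 7.51, 7.66 and 6.98 CPM in Drd1+ neurons of NZO/HlLtJ, and only the A/J mouse of batch 1 at 7.48 was as low among the others. It was lower by −0.95 ± 0.17 on the log2 scale (adjusted p = 6.56e-05). In Drd2+ neurons, NZO/HlLtJ mice had 15.95, 13.5, 13.6 and 5.41 CPM of Nr1d1 and no call was made, but the strain effects of the 2 clusters were not shown to differ (interaction adjusted p = 0.49). Cry2 was at 57.9, 61.9, 58.7 and 53.8 CPM in Drd1+ neurons of NZO/HlLtJ, −0.28 ± 0.07 on the log2 scale. The strain term of Cry2 had an adjusted p of 0.00193, and 0.0662 without batch 4. Dbp was high in 129S1/SvImJ and CAST/EiJ, by 0.38 ± 0.08 and 0.32 ± 0.08, and Nr1d1 in 129S1/SvImJ by 0.43 ± 0.14 (adjusted p = 0.0305). That last call, and those of higher Cry2 in A/J and PWK/PhJ (0.19 ± 0.07 in each), ended under several alternatives: for Nr1d1 without batch 1, 3 or 4, for A/J without batch 2, 3 or 4, and for PWK/PhJ without batch 1 or batch 4.

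Over strains in Drd1+ neurons, the number of members called higher and lower than in the other strains can be set beside that of all genes. NZO/HlLtJ had 1 higher and 3 lower (11% and 8.75% of genes), and a median member difference of −0.32 beside 0.01 over all genes. CAST/EiJ had 2 higher and 1 lower (16.8% and 15.9%), 129S1/SvImJ had 2 higher and 0 lower (7.72% and 4.58%), and A/J and PWK/PhJ each had 1 in either direction (10.5% and 6.66% in A/J, 17% and 17.3% in PWK/PhJ). NOD/ShiLtJ and WSB/EiJ had 1 higher each (9.39% and 9.69%), and C57BL/6 had 1 lower (5.91%). NZO/HlLtJ had the lowest mean of the 8 strains for 6 of 10 members, Per1, Per2, Cry1, Cry2, Nr1d1 and Dbp, as it did for 13.0% of all tested genes. Per1 itself, at 24.8, 22.5, 22.1 and 23.0 CPM in these mice, was not called by strain in Drd1+ neurons (adjusted p = 0.0538). Arntl, Clock, Per2 and Cry1 were not called either, with adjusted p between 0.242 and 0.504. In Drd2+ neurons the calls in NZO/HlLtJ were 1 higher and 2 lower (10.8% and 7.72% of genes), in CAST/EiJ 2 higher and 1 lower (14.8% and 13.3%) and in A/J 1 in either direction (9.08% and 6.14%). Per3 was the one called higher in NOD/ShiLtJ and WSB/EiJ there (7.58% and 8.54%), and Npas2 the one called lower in PWK/PhJ and 129S1/SvImJ (15.1% and 4.36%).

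**Figure D2:**
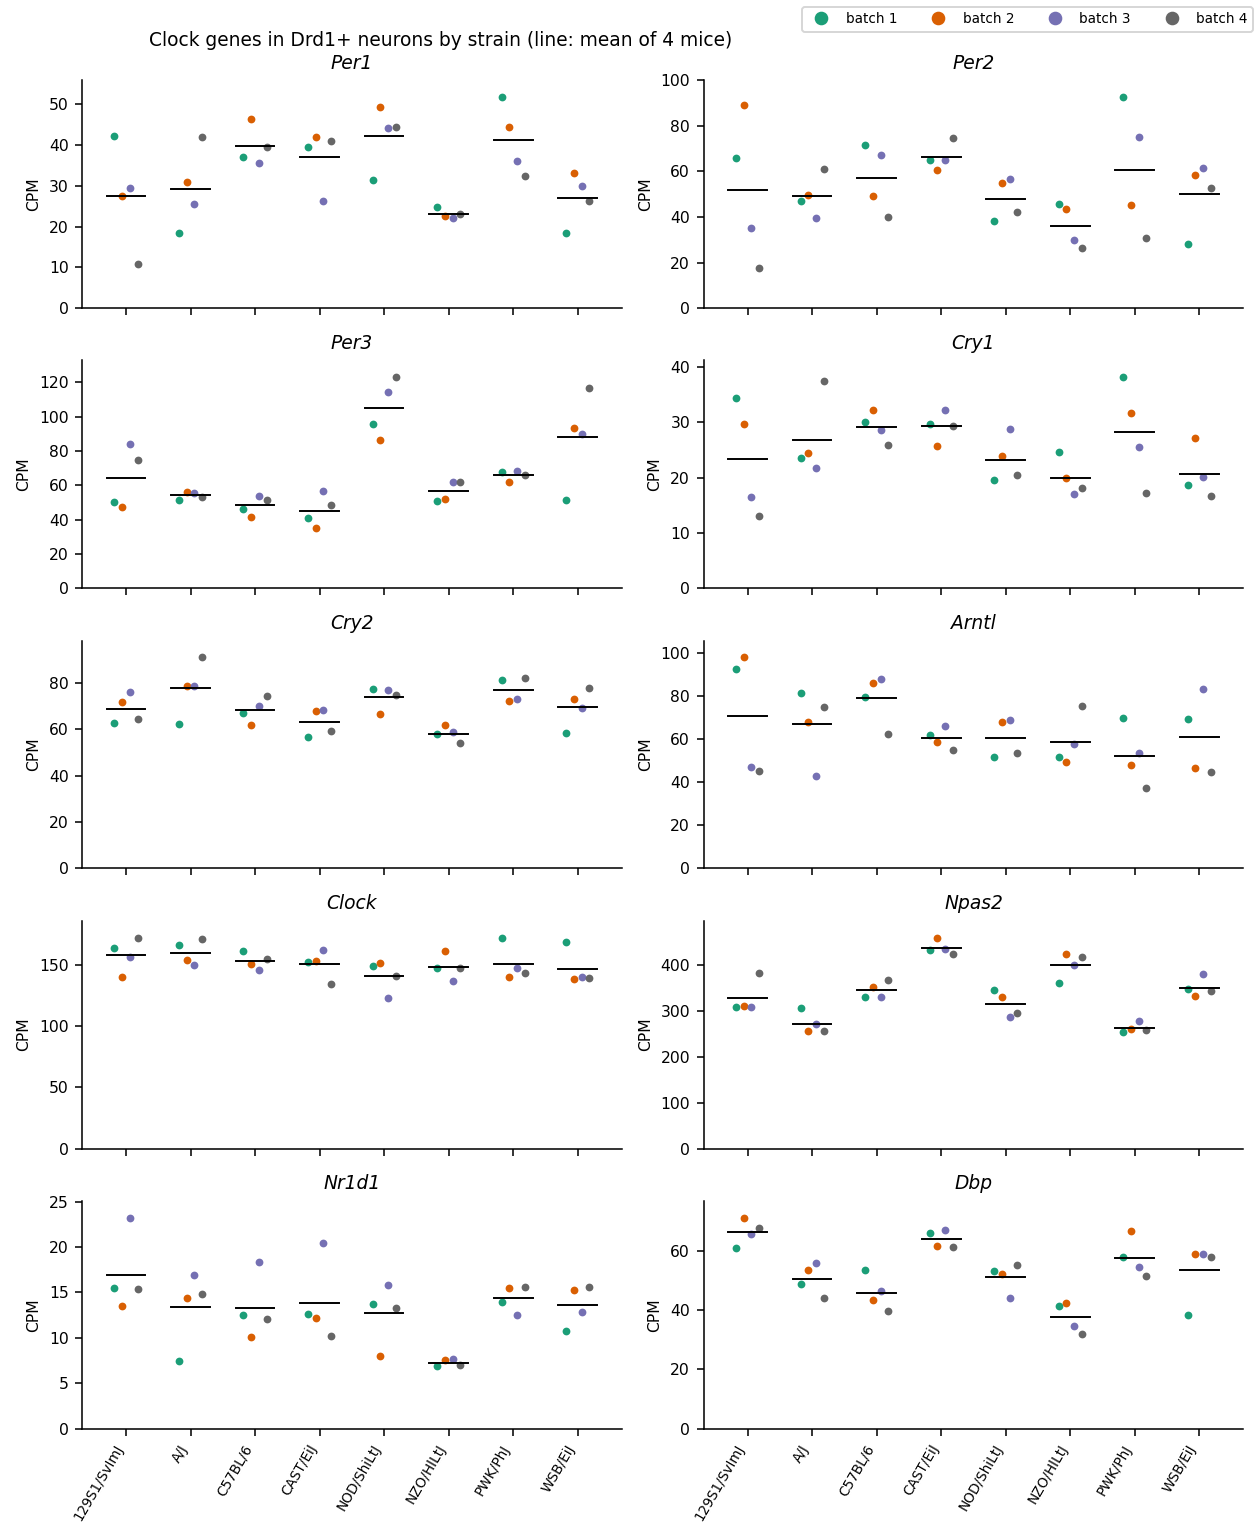
Level of each clock gene in Drd1+ neurons (y axis, CPM, linear scale from 0) in the 8 strains (x axis). Points are mice coloured by batch and lines the mean of 4 mice; NZO/HlLtJ lies lowest for Dbp and Nr1d1, NOD/ShiLtJ highest for Per3 and CAST/EiJ highest for Npas2, while the 4 mice of a strain scatter widely for Per2 and Arntl.

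In glia, strain calls fell on Per1, Per2, Per3, Cry2, Npas2 and Dbp. In oligodendrocytes 3 of 8 tested members had a strain term, Per1, Per2 and Cry2, against 34.8% of genes. Per1 was at 24.1, 10.1, 6.99 and 5.82 CPM in NZO/HlLtJ and at 23.2, 47.7, 26.9 and 38.9 in WSB/EiJ, so the NZO/HlLtJ mouse of batch 1 reached the lowest WSB/EiJ mouse. The log2 difference was −1.18 ± 0.28 in NZO/HlLtJ and 0.66 ± 0.21 in WSB/EiJ (adjusted p = 0.00217 and 0.0244), against 3.17% of genes lower and 5.86% higher in these strains. This count of 2 contrasts was 4 without batch 1 and 1 without batch 2, and without batch 4 the strain terms of Per1 and Cry2 ended (adjusted p = 0.0637 for each) and without batch 2 that of Per2 (0.136). In astrocytes 4 of 10 members had a strain term, Per2, Per3, Npas2 and Dbp, against 21.5% of genes. Dbp was again low in NZO/HlLtJ astrocytes, at 69.0, 63.3, 41.3 and 60.4 CPM (log2 difference −0.66 ± 0.18, adjusted p = 0.0155), and Per2 was low there as well, by −0.95 ± 0.23, where 1.83% of genes were lower. NOD/ShiLtJ astrocytes had Dbp at 84.3, 128, 140 and 198 CPM, 0.69 ± 0.15 above the others (2.75% of genes higher). WSB/EiJ astrocytes had Npas2 at 241, 225, 435 and 272 CPM, 0.83 ± 0.19 above the others, and higher Per1 by 0.82 ± 0.22 (1.95% of genes higher). PWK/PhJ astrocytes had higher Per3 by 0.49 ± 0.14 (4.78%).

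The CAST/EiJ and PWK/PhJ astrocyte libraries of batch 3 were the smallest, with 38252 and 100020 counts, and held no count of Per1, Cry1 and Nr1d1 or of Arntl. Without them, the strain term was called for 3 of 10 members against 20.8% of genes. That of Per3 ended at an adjusted p of 0.068, and the call of PWK/PhJ was gone. The 6 astrocyte contrasts fell to 3 without batch 2 or batch 3 and to 2 without batch 4, and the astrocyte strain term of Npas2 ended without batch 1 or batch 4 (adjusted p = 0.091 and 0.142) and that of Per2 without batch 2 (0.145). Of the remaining clusters, the second Drd1+ cluster had 1 of 8 members called, Npas2 (17.5% of genes), and that count was 0 without batch 2 or batch 4. Endothelium had 0 of 8 (3.29%; Nr1d1 had an unadjusted p of 0.0455), macrophages 0 of 2 (24.7%), Nxph1+ interneurons 0 of 3 (1.4%) and Polydendrocyte/Oligodendrocyte 0 of 2 (1.24%), none of the 7 with an unadjusted p under 0.05. DESeq2 called 0 in endothelium as well.

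The difference in strain effect between cell types was tested directly with the mouse as a block. Between Drd1+ and Drd2+ neurons it was called for 0 of 10 members, against 4.55% of genes, while Npas2 and Per2 had unadjusted p of 0.0272 and 0.0369. Between Drd1+ neurons and astrocytes it was called for Per3 (F = 8.95, adjusted p = 1.55e-07), Per1 (F = 5.67, 0.000192), Npas2 (F = 5.33, 0.000582) and Per2 (F = 3.47, 0.0236), 4 of 10 against 11.4% of genes. Per3 showed it plainly: CAST/EiJ was the lowest strain in Drd1+ neurons with 45.3 CPM, yet its astrocytes had 226, 205, 247 and 261. Between Drd1+ neurons and oligodendrocytes it was called for Per1 (F = 6.01, adjusted p = 0.000275) and Per3 (F = 4.61, 0.0087), 2 of 10 against 16.7%. With the block left out, these counts were 2 in astrocytes, where Per1 and Per2 ended, and 1 in oligodendrocytes, where Per3 ended. Per3 in oligodendrocytes also ended without batch 2 or batch 4 (adjusted p = 0.0611 and 0.098), and Per2 in astrocytes without batch 3 or batch 4 (0.0835 and 0.321) and with DESeq2 (0.15).

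Beyond strain and batch, several members varied between mice far more than genes of their level do. For each gene the residual spread was divided by that expected at its level, and genes were ranked. In Drd1+ neurons Per2 stood at percentile 99.8 of 13431 genes, with 11.7 times the expected spread, Arntl at 99.1 (6.53 times), Per1 at 98.5 (4.95 times), Cry1 at 96.8 (3.20 times) and Per3 at 95 (2.51 times). Clock stood at 37.2, Cry2 at 53.4, Npas2 at 60.5, Nr1d1 at 74.2 and Dbp at 79.6. In this cluster Clock, Cry2 and Npas2 thus lay near the middle of all genes, and Arntl, Per1 and Per2 near the top. In Drd2+ neurons of the same mice Per2 stood at 99.6, Arntl at 99.0 and Clock at 31.4. The high places held without any one batch for Per2 (99.7 to 99.8), Arntl (98.7 to 99.4) and Per1 (96.6 to 99.2), while Per3 ranged from 84.4 to 96.2 and Dbp from 25.6 to 86.0. Places differed in the large glial clusters. Astrocytes had Npas2 at 98.9, Cry1 at 96.2, Per2 at 95.3, Per3 at 95.1 and Arntl at 84.5. Clock stood there at 78.7, Nr1d1 at 75.4, Dbp at 75.1, Cry2 at 44.5 and Per1 at 27.4. Oligodendrocytes had Per3 at 99.3, Arntl at 94.5, Per2 at 94.2 and Cry2 at 79.5. Per1 stood there at 58.1, Cry1 at 56.8, Clock at 29.3 and Dbp at 3.30. In the smaller clusters the places varied as well. Macrophages had Per3 at 81.3 and Clock at 15.3. The second Drd1+ cluster had Dbp at 97.4, Npas2 at 85.6, Per1 at 81.5 and Arntl at 76.6. Cry2 stood there at 75.6, Clock at 52.5, Per2 at 44.3 and Per3 at 39.4. Endothelium had Per2 at 92.6, Npas2 at 84.6, Nr1d1 at 81.1 and Cry2 at 59.8. Dbp stood there at 35.7, Per3 at 25.0, Clock at 10.7 and Arntl at 9.93.

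Mice of one strain show this spread. Per2 in Drd1+ neurons was at 66.1, 89.2, 35.1 and 17.7 CPM in the 129S1/SvImJ mice and at 92.6, 45.2, 75.0 and 30.6 in the PWK/PhJ mice. Arntl was at 92.5, 98.1, 47.3 and 45.1 CPM in 129S1/SvImJ and at 69.7, 46.9, 83.4 and 45.0 in WSB/EiJ. In CAST/EiJ the mice lay close, with Per2 at 65.1, 60.5, 65.1 and 74.8 CPM.

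**Figure D3:**
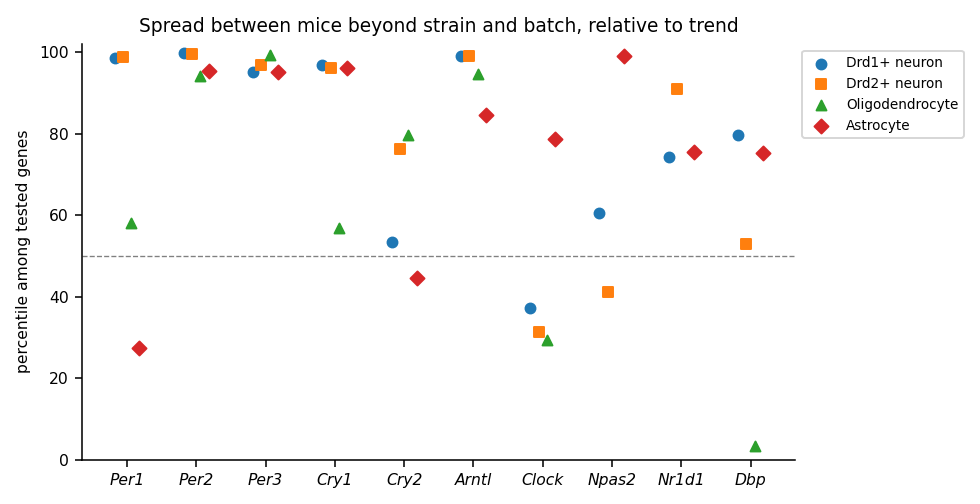
Percentile of each clock gene (x axis) among all genes tested in a cluster by its spread between mice beyond strain and batch, relative to the trend at its level (y axis, 0 to 100). Symbols are clusters and the dashed line marks the median gene; Per2, Per3 and Arntl lie above 84 in the 4 clusters drawn, and Clock lies below the median in Drd1+ neurons, Drd2+ neurons and oligodendrocytes.

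Mice with high levels of a clock gene in Drd1+ neurons also had high levels of it in Drd2+ neurons. Over 32 mice, 30 relations were computed between the level of a member in Drd1+ neurons and its level in another cluster (log2 CPM, permutation tests, Benjamini-Hochberg over the 30), and 13 were called. All 10 members were related between Drd1+ and Drd2+ neurons. Over 13431 genes the median r between these clusters was 0.54, and 65% of genes had an r at or above the lowest of the members, so a positive relation as such was common; with strain and batch means taken off, the median was 0.20 over all genes and 0.72 over the members. Per2 had r = 0.93 and rho = 0.90 (permutation p = 1e-05 for each, the smallest that 100000 permutations can give, adjusted p = 4.29e-05), r = 0.93 without the 2 farthest mice and 0.73 to 0.97 within batches. Arntl had r = 0.92 and rho = 0.91 (permutation p = 1e-05 for each, adjusted p = 4.29e-05), r = 0.90 without 2 mice and 0.89 to 0.95 within batches. Per3 and Npas2 had r = 0.93, Dbp 0.88, Per1 0.87, Cry2 and Cry1 0.70, Clock 0.52 and Nr1d1 0.42 (permutation p from 1e-05 to 0.0151, adjusted p from 4.29e-05 to 0.0377). By percentile among all genes, Per2, Per3, Npas2 and Arntl stood at 95.8 to 97.1, and Clock and Nr1d1 at 46.6 and 35. With strain and batch means taken off, Per2 and Arntl had r = 0.95 and 0.92, while Cry2 had 0.39 and Nr1d1 0.15. Clock, Cry1 and Nr1d1 did not hold in every batch. Clock had r = −0.31 in batch 3, Cry1 0.18 in batch 2 and Nr1d1 0.13 in batches 1 and 3. With astrocytes 3 members were related: Dbp (r = 0.62, rho = 0.67, permutation p = 0.00025 and 7e-05, adjusted p = 0.000833, r = 0.51 without 2 mice, 0.60 to 0.69 within batches), Per3 (r = 0.45, rho = 0.51, permutation p = 0.0102 and 0.00307, adjusted p = 0.0278, r = 0.40 without 2 mice, 0.31 to 0.51 within batches) and Clock (r = 0.41, rho = 0.44, permutation p = 0.0189 and 0.0113, adjusted p = 0.0436, r = 0.38 without 2 mice, 0.12 to 0.74 within batches). The Clock relations with both clusters, that of Nr1d1 with Drd2+ neurons and that of Per3 with astrocytes each missed the threshold without some batch, and that of Clock with Drd2+ neurons also on totals without TMM (r = 0.37, adjusted p = 0.0688). Over 13357 genes the median r between Drd1+ neurons and astrocytes was 0.13, and Dbp stood at percentile 97.6, Per3 at 91.4 and Clock at 88.7. After strain and batch means were taken off, the order changed: Per3 had r = 0.71 (percentile 99.8), Clock 0.69 (99.7) and Dbp 0.37 (92.6). Among members not called, Per1 then had 0.49, Per2 0.45 and the others −0.02 to 0.31. The median was then 0.03 over all genes and 0.34 over the members. With oligodendrocytes no member was called, with r from −0.24 to 0.32 and a median of 0.16 beside 0.14 over 13382 genes. With strain and batch means taken off, the median there was 0.13 over the members and 0.04 over all genes. Npas2 then had r = −0.47 (percentile 1.06), Per3 0.32 (88.6), Clock 0.28 (85.0) and the others 0.01 to 0.18. The Npas2 value rests on 148 counts over all oligodendrocyte nuclei. Depth differs between these clusters, its part in these r was not tested, and neither was the difference between one r and another.

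**Figure D4:**
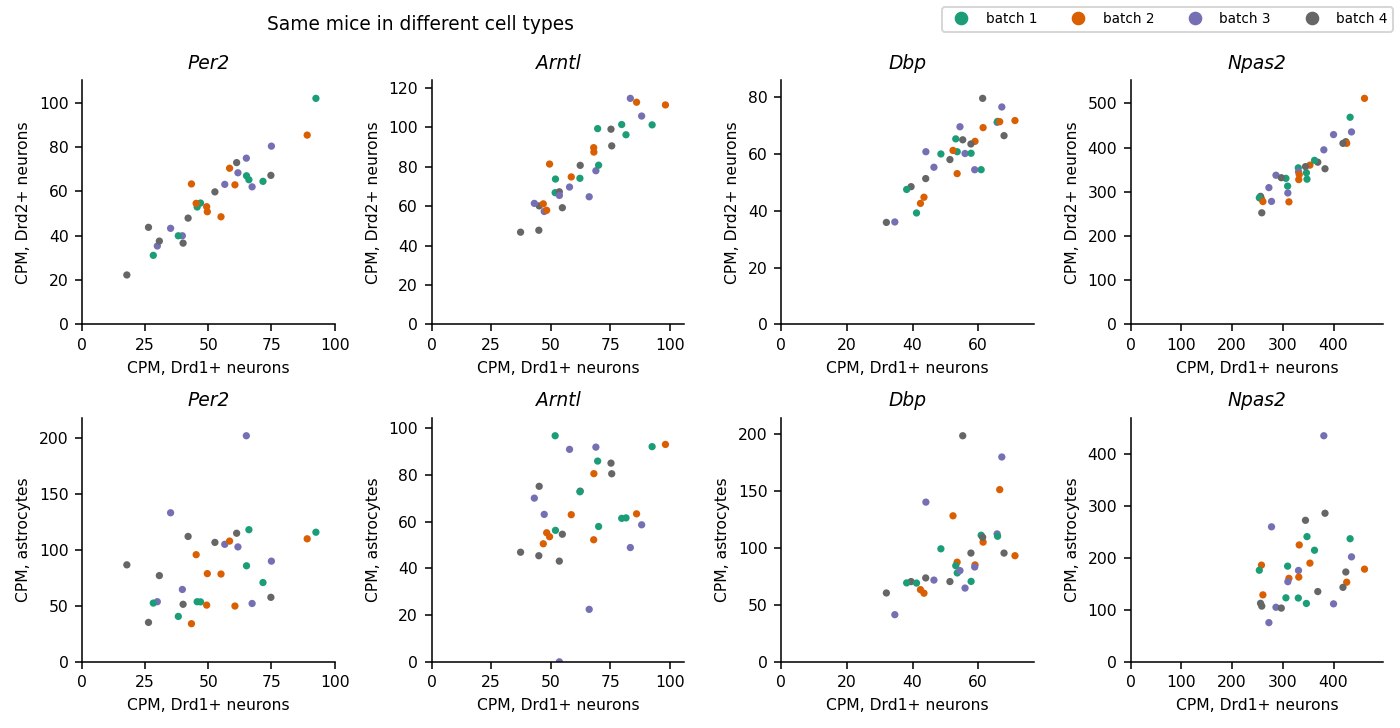
Level of Per2, Arntl, Dbp and Npas2 in Drd1+ neurons (x axis, CPM) against Drd2+ neurons (upper row, y axis, CPM) and astrocytes (lower row) of the same 32 mice, coloured by batch. Points follow a line in the upper row (r from 0.88 to 0.93) and scatter in the lower row, where Dbp has r = 0.62.

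Within Drd1+ neurons, 8 pairs of members were related over the mice. Of 9 relations with Dbp, 1 was called: Nr1d1 had r = 0.61 and rho = 0.51 (permutation p = 0.00021 and 0.00366, adjusted p = 0.00189), r = 0.48 without the 2 farthest mice and 0.63 to 0.74 within batches. With strain and batch means taken off it was 0.31, and the permutations do not take account of strains shared by mice. Per3 and Dbp had r = 0.08 over mice, but 0.64 once strain and batch means were taken off, a value given as a description. Of the other 36 pairs, examined after the values were known, 7 were called. No share of gene pairs at large is given beside these counts, so they are not read as a trait of the members. Per2 and Cry1 had r = 0.80 and rho = 0.75 (permutation p = 1e-05 for each, adjusted p = 0.00024), r = 0.73 without 2 mice and 0.28 to 0.96 within batches. Per1 was related to Cry1 (r = 0.69, rho = 0.66, permutation p = 2e-05 and 8e-05, adjusted p = 0.00024, r = 0.58 without 2 mice, 0.51 to 0.83 within batches). Per1 and Per2 had r = 0.64 and rho = 0.49 (permutation p = 0.0001 and 0.00492, adjusted p = 0.00072), r = 0.44 without 2 mice, and −0.14 to 0.85 within batches, so that the relation did not hold in batch 2. Arntl was positively related over the mice to Cry1 (r = 0.52, rho = 0.51, permutation p = 0.00199 and 0.00319, adjusted p = 0.0119, r = 0.48 without 2 mice, 0.36 to 0.62 within batches) and Per2 (r = 0.46, rho = 0.48, permutation p = 0.00807 and 0.0062, adjusted p = 0.0415, r = 0.50 without 2 mice, 0.25 to 0.59 within batches). The hour of collection is not known, so no phase of the cycle is read from these relations. Cry2 was related to Nr1d1 (r = 0.66, rho = 0.67, permutation p = 6e-05 and 5e-05, adjusted p = 0.00054, r = 0.63 without 2 mice, 0.49 to 0.82 within batches) and inversely to Npas2 (r = −0.71, rho = −0.70, permutation p = 2e-05 for each, adjusted p = 0.00024, r = −0.66 without 2 mice, −0.89 to −0.68 within batches). With strain and batch means taken off, Cry2 and Npas2 had r = −0.38. Levels in one library share its total, which ties CPM values of a mouse to each other.

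**Figure D5:**
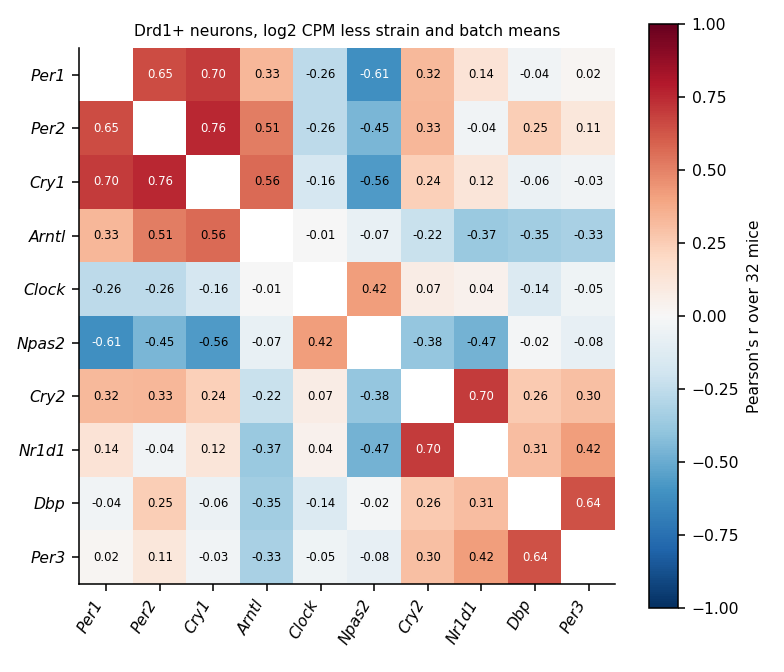
Pearson's r between the residual log2 CPM of each pair of clock genes (rows and columns) in Drd1+ neurons over 32 mice, after strain and batch means were taken off; red is positive and blue negative. Per1, Per2 and Cry1 form a block of 0.65 to 0.76, Cry2 and Nr1d1 have 0.70, Dbp and Per3 0.64, and Npas2 and Per1 −0.61.

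One mouse stood apart in Per1, Per2 and Cry1. The 129S1/SvImJ mouse of batch 4 had the lowest Per1 of all 32 at 10.7 CPM (median 32.8, next lowest 18.4), the lowest Per2 at 17.7 (median 51.1, next lowest 26.3) and the lowest Cry1 at 13.0 (median 25.1), and the highest Clock at 172. Its Per3, at 74.6 CPM, lay above the median of 56.3. Of 12 listed genes induced by neuronal activity, 12 were below the median in the same library. Of these, 5 were the lowest alone, Fos and Ier2 tied for it at 0 CPM, and the rest ranked from 2 to 9 of 32. No share of all genes is given beside these counts, and the library was picked by its Per1, so they are a description only. Nr4a1 was at 3.01 CPM (median 41.3), Npas4 at 4.01 (median 50.8) and Egr1 at 12.4 (median 35.3), each the lowest of 32 mice. Of these genes 11 were tested in Drd1+ neurons, 3 had a strain term and 0 a batch term. Of 12 genes induced by glucocorticoids, 9 were tested, 4 had a strain term and 2 a batch term. Over all genes there, 61.7% had a strain term and 24.8% a batch term. The glucocorticoid genes had a strain term for 7 of 10 in oligodendrocytes (34.8% of genes), 4 of 9 in astrocytes (21.5%) and 5 of 10 in endothelium (3.29%). Fkbp5, a glucocorticoid target, averaged 195 CPM in WSB/EiJ and 10.9 in NOD/ShiLtJ oligodendrocytes; the part of the glucocorticoid response in the strain terms of Per1 and Per2 there was not tested. Without that mouse, Per1 and Per2 had r = 0.51, Per1 and Cry1 0.61, and Per2 and Cry1 0.75, and the strain term was called for 6 of 10 members in Drd1+ neurons, Per1 being added (adjusted p = 0.00725), against 62% of genes. The part of neuronal activity in the Per1 levels was not tested.

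The genes most like each member over the 32 mice were ranked by r of residuals among 9039 genes of at least 10 CPM, and are given as a description. For Per1 they were Rheb (r = 0.88) and Nr4a1 (0.87), and Egr1, Npas4 and Arc of the activity list ranked 10, 13 and 25. Without the mouse above, Per1 and Nr4a1 had r = 0.74. For Dbp the first 5 were Cnksr2 (0.80), Nsun3 (0.76), Hlf (0.73), Cpeb2 (0.71) and Reps2 (0.70); Hlf encodes a PAR bZIP factor of the same family as Dbp. The 5 lowest for Dbp were Napa (−0.74), St8sia2 (−0.72), Sv2b (−0.71), Sfmbt1 (−0.71) and Hsp90aa1 (−0.67). Tef, the other PAR bZIP gene, ranked 5 for Per3 (0.73) after Fam214a (0.84). For Arntl the highest were Psme4 (0.91), Gnal (0.89), Spred1 (0.88), Kif5c (0.87) and 9530059O14Rik (0.87), and the lowest Nmnat3 (−0.85), Etfa (−0.85), Cdk12 (−0.85), Rccd1 (−0.83) and Ptbp2 (−0.81). The first for the rest were Osbpl8 for Per2 (0.89), Etv5 for Cry1 (0.82), Zfp322a for Cry2 (0.74), Slc16a6 for Clock (0.66), Abcc8 for Npas2 (0.74) and 2300009A05Rik for Nr1d1 (0.74). Over the means of 9 clusters, which differ in depth, Npas2 was most like Dgkb (r = 0.996), 4930428E07Rik (0.992) and Gm48715 (0.987), and Per3 most like 2310014F06Rik (0.98), Gm31356 (0.94) and D030047H15Rik (0.94). Dbp was most like Ephx1 (0.95), Pttg1ip (0.94) and its fellow member Nr1d1 (0.92).

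Of 20 other clock pathway genes listed, 19 were tested in Drd1+ neurons and 16 had a strain term (61.7% of all genes), with a median F of 5.39 beside 3.38 over all genes. Those with large F included the F-box gene Fbxl21 (12.2), Hlf (12.0), the ROR element activator Rora (9.41), the Arntl paralogue Arntl2 (8.15) and the repressor Bhlhe41 (6.49). Hlf was lowest in NZO/HlLtJ at 58.5 CPM, as Dbp was, and highest in PWK/PhJ at 105. The batch term was called for 6 of 19 (24.8% of all genes): Rora (F = 12.1), Usp2 (9.75), Gsk3b (6.49), Bhlhe41 (5.86), Btrc (5.64) and Hlf (4.63). In Drd2+ neurons 10 of 17 pathway genes had a strain term against 55.9% of genes, in oligodendrocytes 8 of 14 against 34.8% and in astrocytes 6 of 15 against 21.5%. NZO/HlLtJ had the lowest mean for 6 of 19 in Drd1+ neurons (13.0% of all genes), Bhlhe40, Ciart, Hlf, Csnk1d, Cipc and Gsk3b.

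Batch was called for few members. Besides Per3 in Drd1+ neurons, the batch term was called for Per3 in the second Drd1+ cluster (1 of 8, adjusted p = 0.0276, 5.3% of genes) and for Npas2 and Dbp in endothelium (2 of 8, adjusted p = 0.00458 and 0.0439, 25.6% of genes). In endothelium Npas2 averaged 241 CPM in batch 3 and 91.1 in batch 2, and Dbp 68.8 in batch 3 and 158 in batch 4. Batch 3 had no endothelial library of A/J, CAST/EiJ or WSB/EiJ, so these means cover different strains. Its libraries held 2 to 8 counts of Dbp each. Endothelial Npas2, as said above, cannot be told apart from RNA of projection neurons. Drd2+ neurons had 0 of 10 (21.7% of genes), oligodendrocytes 0 of 8 (17.8%), astrocytes 0 of 10 (4.92%), macrophages 0 of 2 (9.64%), Nxph1+ interneurons 0 of 3 (3.31%) and Polydendrocyte/Oligodendrocyte 0 of 2 (0.0953%). At an unadjusted p under 0.05 those clusters had Per3 in Drd2+ neurons (0.029), Dbp in oligodendrocytes (0.0221) and Npas2 in Polydendrocyte/Oligodendrocyte (0.0292). Nr1d1 in Drd1+ neurons had an unadjusted p of 0.0135 (adjusted p = 0.0531). The endothelial calls were both lost without batch 3, the shallowest, that of Dbp also without batch 1 (adjusted p = 0.0756) and with DESeq2 (0.0509), and 4 members were called without batch 4. That of the second Drd1+ cluster was lost without batch 1 or batch 3. Some members overlap other genes by position in RefSeq: Nr1d1 and Thra share 1075 bases, Dbp and Sphk2 741, Per3 and Uts2 4714, and Cry2 and D930015M05Rik 23417. Whether counting used the strand is not given in the sources used here, so reads in these stretches may belong to either gene. Over the means of 9 clusters, D930015M05Rik was the gene most like Cry2 of 13703 genes (r = 0.97). The part of shared reads in the Cry2 values was not tested.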

How the data were processed

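The labels' protocols and design text describe nuclei of frozen mouse striatum, pooled from 8 mice a batch, with RNA and open chromatin libraries by 10x Multiome. Per the submitters' processing notes, Cell Ranger ARC 2.0.0 and bcl2fastq 2.20.0.422 were used with builds mm10 and GRCm38; use of introns and of strand is not given in the sources used here. The authors deposited raw UMI counts per gene and barcode, and a table of nuclei with mouse and cluster; the kept nuclei hold 203 to 7454 genes. Doublet removal was the authors' and no caller was run here.

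Counts were summed per mouse and cluster for libraries of at least 10 nuclei. edgeR 4.0.16 (R 4.3.3) fitted quasi-likelihood models with robust dispersion, TMM scaling and filterByExpr to strain and batch, with Benjamini-Hochberg adjustment over all genes tested in a cluster. One strain was compared with the mean of the other 7, and clusters or strain by cluster interaction with the mouse as block. Batch is given by the labels and holds 1 mouse of each strain. Relations over mice used log2 CPM with a prior count of 2 and 100000 two-sided permutations. Alternatives were DESeq2 1.42.0, its size factors, no filter, at least 30 nuclei, no block, prior counts of 0.5 and 5, totals without TMM and leaving out each batch. The fits were tested on simulated data. The 10 members and the gene lists were chosen with earlier results of these data known; all members are named, with the pathway genes of the 6 largest F, of which 1 is not reported here, and the genes most like a member. The 36 pairs without Dbp, results without single libraries, and the shares and percentiles over all genes for relations and for the fit with no filter, were chosen after seeing the data.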

Additional observations from a re-analysis of the deposited data

Results flagged for a closer look

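In Drd1+ neurons 1 mouse lay far from the other 3 of its strain in 5 of 80 combinations of member and strain, where chance alone gives about 1 in 20. WSB/EiJ batch 1 had Clock at 168 CPM, with the other 3 at 138 to 140, and Dbp at 38.2, with the next at 57.8. Cry1 was at 37.5 CPM in A/J batch 4, with the next at 24.4. Npas2 was at 383 CPM in 129S1/SvImJ batch 4, with the next at 312, and Per1 at 26.3 in CAST/EiJ batch 3, with the next at 39.4.

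The strain effect differed from that in Drd1+ neurons by the interaction test for Per1 (F = 6.01) and Per3 (F = 4.61) in oligodendrocytes. In astrocytes it differed for Per1 (F = 5.67), Per2 (F = 3.47), Per3 (F = 8.95) and Npas2 (F = 5.33).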

How the results depend on the processing

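With no low count filter, members with a strain term numbered 9 in Drd1+ neurons (5 with the filter) and 9 in Drd2+ neurons (4), where 36% and 32% of all genes had one. The batch term was then called for 4 in Drd1+ (1) and 3 in Drd2+ (0), against 13.5% and 11.4% of genes. It was called for 0 in the second Drd1+ cluster (1) and 1 in Polydendrocyte/Oligodendrocyte (0), against 1.24% and 0.34% of genes. Strain contrasts numbered 25 in Drd1+ (16), 21 in Drd2+ (12) and 4 in oligodendrocytes (2), and members called between Drd2+ and Drd1+ neurons 2 (4). No share of all genes is given for these contrasts with no filter. The same holds for counts under DESeq2, with at least 30 nuclei, with no block or without a batch. Such counts are therefore not read as results about the members. DESeq2 gave 0 for the batch term of the second Drd1+ cluster and 1 between Drd2+ and Drd1+ neurons, and a minimum of 30 nuclei gave 0 for the former. With no replicate block, 1 member was called between Drd2+ and Drd1+ neurons, 1 in the oligodendrocyte interaction (2) and 2 in the astrocyte interaction (4). Leaving out each batch in turn gave 0 to 2 for the strain term of the second Drd1+ cluster. For the batch term it gave 0 to 2 in Drd1+ neurons, 0 to 1 in Drd2+ neurons, 0 to 1 in the second Drd1+ cluster and 0 to 4 in endothelium. It gave 1 to 4 contrasts in oligodendrocytes, 2 to 5 in astrocytes, 1 to 2 members between Drd2+ and Drd1+ neurons, 1 to 2 in the oligodendrocyte interaction, and 1 to 2 relations with Dbp. Clock in the second Drd1+ cluster turned from −0.131 to 0.021 with DESeq2's size factors and 0.0244 with DESeq2. Per1 in endothelium turned from −0.212 to 0.154 with those size factors and 0.123 with DESeq2. It ran from −0.219 to 0.0593 when each batch was left out, being above 0 without batch 3. None of these values was called. With no low count filter, however, Clock and Per1 were called lower in the second Drd1+ cluster. Their differences were −0.204 and −0.349 (adjusted p = 0.00735 and 0.0293, edgeR's quasi-likelihood test). The cause was not tested. Depth limits the smaller clusters, where 2 or 3 members could be tested in macrophages, Nxph1+ interneurons and Polydendrocyte/Oligodendrocyte.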
